A study of Mus musculus with 12 samples.

Results

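Whole lung of mice with mixed airway inflammation was compared with that of mice with eosinophilic airway inflammation, both raised with house dust mite (HDM) extract at the same low dose. The comparison uses 6 of the 12 arrays in the series, 3 mice in each group, taken by their sample titles. All mice were Balb/c, and 1 Affymetrix Gene 1.0 ST array was hybridised with total RNA from the lung of each mouse. The extract holds allergens of the mites Der p and Der f, and its strength is given in development units (DU). Eosinophilic mice had been injected into the peritoneum 3 times, on days 0, 7 and 21, with 0.75 DU of each allergen bound to 1.5 mg of aluminium hydroxide (alum), and were challenged through the nose with the same dose on days 26 to 28. Mixed mice received 0.75 DU of each allergen through the nose alone, weekly and 4 times in all, with no injection and no alum. Control mice, given PBS through the nose, supply the background level, and neutrophilic mice, given 7.5 DU of each allergen on the weekly nasal schedule, are quoted beside the comparison. Route, alum, the number of exposures and their spacing all differ between the mixed and eosinophilic groups and cannot be told apart here. The labels name neither age nor sex, and mice are named by the numbers in their titles.

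Antigen given with alum into the peritoneum is a classical way to raise a type 2 response, in which IL-4 and IL-13 act on macrophages and mucus-producing cells and IL-5 supports eosinophils. Allergen that reaches the airway without an adjuvant meets the epithelium first, and an irritated epithelium can release CXC chemokines that bind the receptor CXCR2 and draw neutrophils. Macrophages exposed to IL-4 or IL-13 take on the state called alternative activation and can divide within the tissue.

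The clearest difference between the groups lay in genes for CXCR2 ligands, so the promoters of this chemokine cluster are shown first. The 150 bases upstream of the transcription start are printed 5′ to 3′ for Cxcl1 (chr5:90891095-90891244, plus strand), Cxcl2 (chr5:90903749-90903898, plus strand) and Cxcl3 (chr5:90785951-90786100, plus strand), from RefSeq on GRCm38.p6. Capitals mark the letters GGAATTTCC, a form of the kappa B element that NF-kappa B proteins bind.
Cxcl1: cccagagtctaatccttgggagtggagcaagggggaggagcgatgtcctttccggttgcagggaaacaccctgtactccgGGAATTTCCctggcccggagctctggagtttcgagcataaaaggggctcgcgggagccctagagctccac
Cxcl2: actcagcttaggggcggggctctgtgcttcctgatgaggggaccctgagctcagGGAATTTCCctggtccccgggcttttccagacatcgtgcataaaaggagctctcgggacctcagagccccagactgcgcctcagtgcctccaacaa
Cxcl3: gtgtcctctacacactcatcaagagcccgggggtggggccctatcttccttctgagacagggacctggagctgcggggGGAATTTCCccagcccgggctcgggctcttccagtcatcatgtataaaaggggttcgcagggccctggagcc
The letters GGAATTTCC, searched on both strands in the 250 bases before the start, were found in 94 of 32851 RefSeq promoter windows (0.286%). They were in 3 of the 5 CXCR2 ligand genes with a window, those printed, where a gene counted if any of its windows held them. Of the 3, Cxcl1 passed the test without mouse 7 and Cxcl2 and Cxcl3 did not pass. No window of Cxcl5 was used here. They began 70 bases before the start of Cxcl1, 96 bases before that of Cxcl2 and 72 bases before that of Cxcl3. This form was chosen after the windows had been searched for a longer one, with a further G at the 5′ end, which the same 3 windows hold. The count of 3 was thus known before this search and is no test. A match is a description of the letters and no measure of binding.

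Arrays differed in range, and this bears on every value below. The SD of log2 intensity over genes was 0.758 on the array of eosinophilic mouse 7, against 1.87 for eosinophilic mouse 8, 1.41 for eosinophilic mouse 9 and 1.67 to 1.98 for the mixed mice. The array of mouse 7 correlated with the median of the other 11 arrays at r = 0.435 across genes, and the others at 0.903 to 0.983. Sftpc, the surfactant protein gene that marks alveolar type 2 cells, read 7.38, 14.31 and 12.95 (log2 intensity) in eosinophilic mice 7, 8 and 9 and 14.03 to 14.21 in mixed mice. The lung label thus held by this marker in every mouse of the comparison except eosinophilic mouse 7, whose array was low for it. A compressed array pulls bright genes down and dim genes up, so counts and list medians are given for all 12 arrays and again without mouse 7. The differences of some single genes, and those between neutrophilic and eosinophilic mice, are given without mouse 7 only. With all 12 arrays the median difference, mixed minus eosinophilic, was 1.2 (log2) in the brightest 10% of genes by control lung and -0.75 in the dimmest 10%. Without mouse 7 these were 0.28 and -0.33, so a smaller tilt of the same sign remained. Over all genes the median difference was -0.00 (log2) with 12 arrays and -0.01 without mouse 7.

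Few genes passed the test between these groups. With all 12 arrays 1 of 19937 genes (0.00502%) passed an adjusted p of 0.05 in limma, Benjamini-Hochberg adjusted over all genes, and it was higher in mixed lung. None was lower (0%), while 1961 genes were higher (9.84%) and 1360 lower (6.82%) at an unadjusted p under 0.05 in limma. Without mouse 7 these unadjusted counts were 900 (4.51%) and 543 (2.72%). Without mouse 7, 10 genes passed (0.0502%), 6 of them higher in mixed lung (0.0301%) and 4 lower (0.0201%), and each differed by at least 2-fold. The 6 were Cxcl5, Cxcl1, Sprr1a and 3 genes annotated as small or predicted RNA (Snora74a, Vaultrc5, Gm10590). The 4 were Cd163, Npl, Anln and Rrm2. All 10 had the same sign with all 12 arrays, and in 7 of the 10 the values of the groups also did not overlap when mouse 7 was counted. These 7 were the 6 higher genes and Anln, a dim gene. The compressed array of mouse 7 pulls bright genes down and dim genes up, so this is no separate agreement. The 2 fits had 1 gene in common, Cxcl5. The median SD over mice was 0.673 (log2) in the eosinophilic group and 0.272 in the mixed group. An exact permutation test of 3 mice against 3 cannot give a two-sided p below 0.1.

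**Figure D1:**
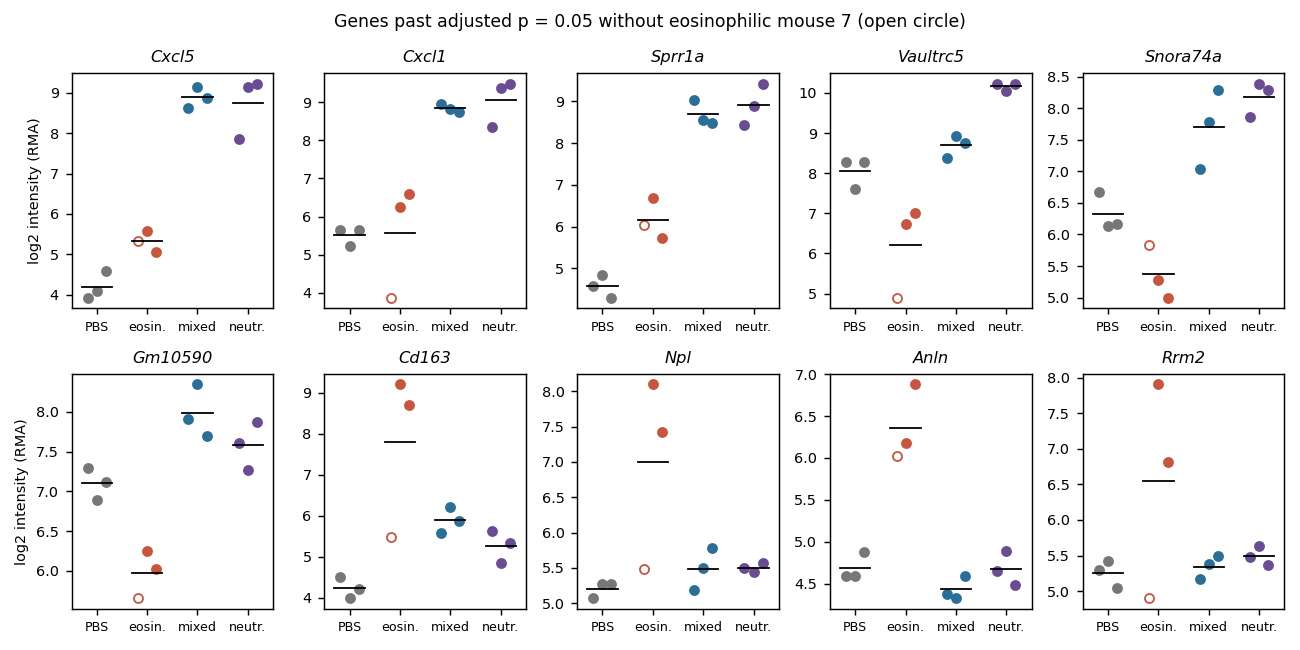
Log2 intensity of the 10 genes past adjusted p = 0.05 without eosinophilic mouse 7, for each mouse of the 4 groups (PBS control, eosinophilic, mixed, neutrophilic), with a bar at the mean of the 3 mice and an open circle for mouse 7. Cxcl5 lay between 8.63 and 9.15 in mixed mice and between 5.07 and 5.59 in eosinophilic mice, while Cd163 in mouse 7 (5.48) lay beside the mixed mice (5.58 to 6.22).

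Of the chemokines that signal through CXCR2, Cxcl5 and, without mouse 7, Cxcl1 were higher in mixed lung. Cxcl5, a ligand made largely by lung epithelium, read 8.63, 9.15 and 8.86 (log2 intensity) in mixed mice 15, 16 and 17 and 5.32, 5.59 and 5.07 in eosinophilic mice 7, 8 and 9. Every mixed mouse lay above every eosinophilic mouse by a wide gap. The compressed array of mouse 7 has a median of 5.53, so its value of 5.32 is no separate agreement with mice 8 and 9. The difference was 3.56 (log2) with an SE of 0.37 and an adjusted p of 0.00805 in limma with all 12 arrays. Without mouse 7 it was 3.55 with an SE of 0.40 and an adjusted p of 0.00418, an 11.8-fold higher level. Control mice read 3.93 to 4.59 for Cxcl5, so the eosinophilic mice lay close above control. Neutrophilic mice ran from 7.86 to 9.22, beyond the range of the mixed mice at both ends.

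Cxcl1, another CXCR2 ligand, read 8.96, 8.82 and 8.74 in mixed mice and 3.87, 6.24 and 6.60 in eosinophilic mice. The groups did not overlap, and mouse 7 was the lowest. Its difference was 3.27 (log2; SE 0.58, limma adjusted p = 0.155) with 12 arrays and 2.42 (SE 0.34, limma adjusted p = 0.0187) without mouse 7, a 5.37-fold higher level. Cxcl1 read 5.23 to 5.66 in control mice, and eosinophilic mice 8 and 9 lay above that range and mouse 7 below it.

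Cxcl2, which encodes MIP-2, read 10.21, 8.98 and 10.49 in mixed mice and 6.19, 7.86 and 5.79 in eosinophilic mice, without overlap. Its difference of 3.28 (log2; 3.07 without mouse 7) was nearly that of Cxcl5, but its SE of 0.81 was larger and it did not pass in limma (adjusted p = 0.295, and 0.424 without mouse 7). Cxcl3 read 7.93, 7.87 and 8.32 against 5.96, 7.09 and 6.16, a difference of 1.64 (log2; 1.42 without mouse 7) that did not pass in limma either (adjusted p = 0.191, and 0.252 without mouse 7). Cxcl15, called lungkine and expressed in healthy lung epithelium, was already at 11.76 to 11.97 in control mice and read 12.17 to 12.44 in mixed mice against 5.08, 12.03 and 10.98. Ppbp, a platelet chemokine gene, overlapped between the groups. Of the 6 CXCR2 ligands 5 had all mixed values above all eosinophilic values, against 6.91% of all genes, and the same number did so without mouse 7, against 9.33%. The median difference of the 6 was 3.11 (log2) with 12 arrays and 1.92 without mouse 7, and it lay between 1.49 and 3.65 in the 17 alternative settings. Against control, 1 of the 6 was higher in eosinophilic lung at a limma adjusted p under 0.05 in each fit (0.0752% and 0.451% of all genes). In mixed lung this held for 4 of the 6 (0.326% and 1.41%). The median difference from control was 0.59 (log2; 1.01 without mouse 7) in eosinophilic lung and 3.30 in mixed lung.

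Among neutrophil genes no single gene passed, although 15 of 18 had a positive difference in each fit (49.8% of all genes with 12 arrays and 48.6% without mouse 7). All mixed values lay above all eosinophilic values in 6 of the 18 and below in 1 with 12 arrays (6.91% and 6.14% of all genes), and in 7 and 1 without mouse 7 (9.33% and 8.76%). Ly6g, the surface marker of mouse neutrophils, read 7.81, 7.25 and 8.29 in mixed mice and 5.24, 6.41 and 4.77 in eosinophilic mice. S100a8, a subunit of calprotectin, read 9.06, 8.15 and 8.81 against 6.17, 7.65 and 6.84. Trem1, a receptor on neutrophils and monocytes, read 8.04, 6.83 and 7.20 against 6.25, 6.42 and 4.40. None of these 3 genes overlapped between the groups, and the differences without mouse 7 were 2.19, 1.43 and 1.94 (log2) with limma adjusted p between 0.472 and 0.598. In limma 8 of the 18 neutrophil genes were higher and 1 lower at an unadjusted p under 0.05 with 12 arrays (9.84% and 6.82% of all genes), and 5 higher and 0 lower without mouse 7 (4.51% and 2.72%). The median difference of the 18 was 1.34 (log2), and 0.90 without mouse 7. In whole lung, fewer cells of a type and less RNA per cell cannot be told apart.

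No gene of the IL-17 axis passed. Of its 12 genes 9 had a positive difference with 12 arrays (49.8% of all genes) and 10 without mouse 7 (48.6%), with medians of 0.60 and 0.37 (log2). In each fit 5 had all mixed values above all eosinophilic values (6.91% and 9.33% of all genes). Nfkbiz, which encodes a nuclear cofactor of NF-kappa B needed for many IL-17 responses, read 8.12, 7.64 and 7.64 in mixed mice and 5.01, 6.43 and 5.94 in eosinophilic mice, against 6.31 to 6.76 in control mice. All mixed mice lay above the control range, eosinophilic mice 7 and 9 lay below it, and mouse 8 was within it. Mice 7 and 9 are those with low-range arrays, and the part of this in their Nfkbiz values was not tested. The Nfkbiz difference was 2.0 (log2) with 12 arrays and 1.61 without mouse 7, with limma adjusted p of 0.191 and 0.252. Il6 read 5.89, 5.77 and 7.11 against 5.32, 4.80 and 4.78, again without overlap. Il17a itself stayed near the dim end, at 5.07 to 5.48 in mixed mice and 5.34 to 6.48 in eosinophilic mice, and the groups overlapped.

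Acute phase and antimicrobial genes, which epithelium and liver switch on in inflammation, had the next largest median of the lists plotted with all 12 arrays. Their median difference over 17 genes was 1.95 (log2) with 12 arrays and 1.0 without mouse 7. All mixed values lay above all eosinophilic values in 10 of the 17 with 12 arrays (6.91% of all genes) and in 11 without mouse 7 (9.33%). None passed in limma, and 10 were higher at an unadjusted p under 0.05 with 12 arrays (9.84% of all genes) and 9 without mouse 7 (4.51%). Saa3, a serum amyloid A made in the lung, read 11.73, 11.22 and 11.15 in mixed mice and 7.97, 10.69 and 9.22 in eosinophilic mice, against 4.39 to 5.32 in control mice. Eosinophilic mice thus also lay far above control, and mouse 8 came close to the mixed mice. Steap4, a metalloreductase induced by IL-17, read 11.47, 10.80 and 10.61 against 7.18, 9.57 and 8.68. Reg3g, an antibacterial lectin, read 9.46, 10.54 and 10.26 against 6.09, 9.40 and 7.37, a gap of less than 0.1 log2 between mixed mouse 15 and eosinophilic mouse 8.

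Sprr1a, a cross-linked envelope protein of squamous and injured epithelium, was higher in mixed lung without mouse 7. It read 9.03, 8.55 and 8.47 in mixed mice, 6.04, 6.69 and 5.74 in eosinophilic mice and 4.30 to 4.84 in control mice. The groups lay apart, in the order control, eosinophilic, mixed, and mouse 7 lay between the other eosinophilic mice. Its compressed array pulls bright genes down, so its place below the mixed mice is no separate agreement. The difference was 2.53 (log2; SE 0.34, limma adjusted p = 0.0637) with all 12 arrays and 2.47 (SE 0.36, limma adjusted p = 0.0268) without mouse 7, a 5.53-fold higher level. No such shift was seen in the median of the basal and squamous list: over its 12 genes it was -0.39 (log2) and -0.23 without mouse 7, and the basal keratin gene Krt14 read 4.61 to 4.88 in mixed mice and 5.0 to 5.49 in eosinophilic mice.

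Secretory genes of the airway held some of the widest gaps, with a wide spread in the eosinophilic group. Scgb3a1, a secretoglobin of airway secretory cells, read 12.21, 12.47 and 11.93 in mixed mice and 5.62, 10.37 and 7.43 in eosinophilic mice, against 9.60 to 10.95 in control mice. Mixed mice lay above control, eosinophilic mice 7 and 9 lay below it, and mouse 8 was within it. The arrays of mice 7 and 9 have a low range, which pulls bright genes down. The part of this in their Scgb3a1 values was not tested. The Scgb3a1 difference was 4.40 (log2; SE 0.86) with 12 arrays and 3.31 (SE 0.63) without mouse 7, with limma adjusted p of 0.191 and 0.141. Scgb3a2, a related secretoglobin, read 7.14, 7.47 and 6.72 in mixed mice and 5.07, 5.76 and 5.27 in eosinophilic mice, and control mice read 7.08 to 7.72. Here the mixed mice lay near control and the eosinophilic mice below it. Scgb3a2 was lower in eosinophilic than in control lung in both fits, by -2.06 (log2; limma adjusted p = 0.0347) and, without mouse 7, by -1.91 (limma adjusted p = 0.0115), and it did not pass between mixed and eosinophilic lung (1.74, limma adjusted p = 0.148; 1.59, limma adjusted p = 0.141 without mouse 7). Over the 14 club cell genes the median difference was 1.51 (log2) with 12 arrays and 0.22 without mouse 7, so most of that shift rested on mouse 7.

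The mucus genes of goblet cells named here lay above control in the mixed mice and in eosinophilic mice 8 and 9, and none passed between the groups. Clca1, a secreted protein of goblet cells, read 12, 11.73 and 11.55 in mixed mice and 5.88, 10.01 and 11.15 in eosinophilic mice, against 4.27 to 4.55 in control mice. Muc5ac, the inducible gel-forming mucin, read 7.67, 7.39 and 7.50 against 5.25, 6.83 and 5.96. Tff2, a trefoil peptide secreted with mucus, read 8.41, 8.85 and 9.16 against 6.43, 7.66 and 6.74, and the anion exchanger gene Slc26a4 read 11.46, 11.11 and 10.61 against 5.07, 9.71 and 9.46. None of the 4 overlapped between groups, and mouse 7 was the lowest mouse for each. Without mouse 7 the differences were 1.18 for Clca1, 1.12 for Muc5ac, 1.61 for Tff2 and 1.47 for Slc26a4 (log2), with limma adjusted p between 0.271 and 0.453. Muc5b, the gel-forming mucin of resting airway, read 9.52, 9.16 and 8.54 against 4.70, 7.83 and 8.53, so mixed mouse 17 and eosinophilic mouse 9 were almost level. Of 16 goblet cell genes 7 had mixed values wholly above with 12 arrays (6.91% of all genes) and 9 without mouse 7 (9.33%), and 0 wholly below in either. In limma 7 were higher at an unadjusted p under 0.05 in each fit (9.84% and 4.51% of all genes), and 1 was lower with 12 arrays (6.82%). The median difference of the 16 was 0.72 (log2) with 12 arrays and 0.34 without mouse 7. The 8 housekeeping genes had larger medians, 1.25 and 0.48, with 0 wholly above in either (6.91% and 9.33% of all genes). Among 7 membrane mucin genes none lay wholly apart and none passed in limma, also at an unadjusted p under 0.05, with medians of -0.28 (log2) and 0.02 without mouse 7.

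Junction genes are a topic in the title of the study, and none passed between the groups in either fit. Of 31 tight junction genes 8 had all mixed values above all eosinophilic values and 0 below with 12 arrays (6.91% and 6.14% of all genes), and 9 above and 2 below without mouse 7 (9.33% and 8.76%). In limma 8 were higher at an unadjusted p under 0.05 with 12 arrays (9.84% of all genes) and 4 without mouse 7 (4.51%). Cldn4, a sealing claudin of airway and injured alveolar epithelium, read 8.27, 8.02 and 7.42 in mixed mice and 4.23, 6.42 and 5.30 in eosinophilic mice, against 6.02 to 6.16 in control mice. Cldn1 read 7.40, 7.27 and 7.77 against 6.01, 6.19 and 5.62, and Cldn7 read 8.39, 8.19 and 7.80 against 6.69, 7.09 and 6.55. All 3 claudins had mixed values above both the eosinophilic and the control values. None passed in limma: the differences without mouse 7 were 2.04, 1.58 and 1.31 (log2) for Cldn4, Cldn1 and Cldn7, with adjusted p of 0.31, 0.424 and 0.423. Occludin (Ocln) read 6.90 to 7.55 in mixed mice and 7.03 and 6.76 in eosinophilic mice 8 and 9, the scaffold gene Tjp1 read 8.98 to 9.46 against 8.94 and 9.01, and E-cadherin (Cdh1) read 9.37 to 10.06 against 9.62 and 9.34. These overlapped or nearly touched, with 95% intervals without mouse 7 of -0.28 to 0.89 for Ocln, -0.55 to 0.92 for Tjp1 and -0.53 to 0.77 for Cdh1 (log2). Over 31 tight junction genes the median difference was 0.60 (log2) and 0.23 without mouse 7, and over 16 adherens junction and desmosome genes it was 0.82 and 0.05.

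**Figure D2:**
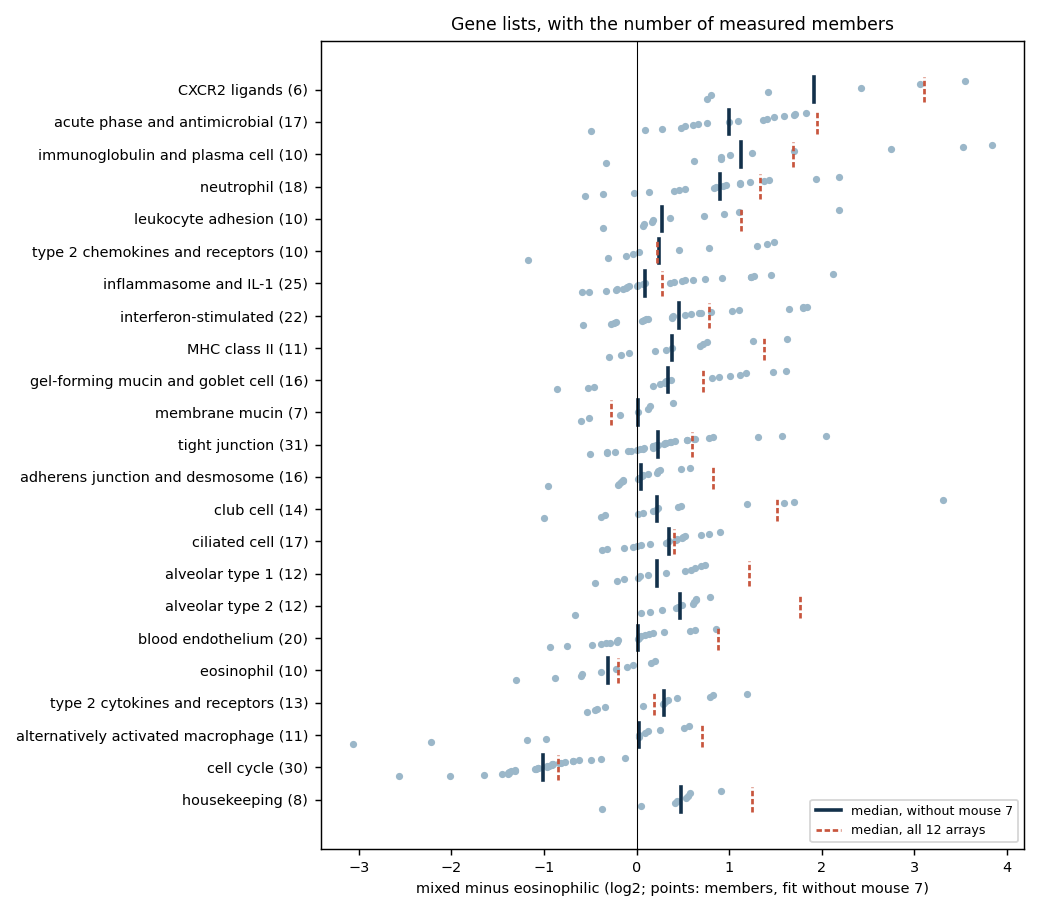
Difference between mixed and eosinophilic lung (log2) for the members of 23 gene lists, points from the fit without mouse 7, with the list median of that fit (solid line) and of all 12 arrays (dashed line). CXCR2 ligands had the highest median in both fits and cell cycle genes the lowest, and the housekeeping list had medians of 1.25 and, without mouse 7, 0.48.

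The inflammasome, a further topic of the title, showed its widest gap in Il1b, a cytokine that caspase-1 activates. Il1b read 10.89, 9.92 and 10.07 in mixed mice and 6.14, 9.46 and 6.87 in eosinophilic mice, with control mice between 5.74 and 7.63. Casp4, the sensor of cytosolic lipopolysaccharide, read 8.71, 7.94 and 8.50 against 4.78, 7.75 and 6.55. Neither overlapped between the groups, with mouse 8 close to the mixed mice in both, and their limma adjusted p values were 0.295 with 12 arrays and 0.598 and 0.674 without mouse 7. The sensor Nlrp3 read 4.90 to 6.63 against 4.76 to 6.08, and Casp1 read 5.14 to 5.46 against 4.62 to 5.79, so both overlapped. Of 25 inflammasome and IL-1 genes none passed in limma, 8 were higher at an unadjusted p under 0.05 with 12 arrays (9.84% of all genes) and 4 without mouse 7 (4.51%), and the median difference was 0.27 (log2), or 0.09 without mouse 7.

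The macrophage gene Cd163 and the gene Npl were lower in mixed lung once mouse 7 was left out. Cd163, a scavenger receptor for haemoglobin complexes on tissue macrophages, read 5.58, 6.22 and 5.87 in mixed mice and 5.48, 9.21 and 8.70 in eosinophilic mice. Mice 8 and 9 lay far above all mixed mice, while mouse 7 lay with the mixed mice. The difference was -1.91 (log2; SE 0.72, limma adjusted p = 0.295) with all 12 arrays and -3.06 (SE 0.32, limma adjusted p = 0.0037) without mouse 7, an 8.37-fold lower level in mixed lung. Control mice read 4.0 to 4.51 for Cd163 and neutrophilic mice 4.85 to 5.63, so mice 8 and 9 stood above all other mice of the series. Npl, N-acetylneuraminate pyruvate lyase, an enzyme that breaks down sialic acid, read 5.18, 5.50 and 5.78 in mixed mice and 5.48, 8.10 and 7.42 in eosinophilic mice. Its pattern over mice was that of Cd163, with mixed mice near the control range of 5.07 to 5.27. The Npl difference was -1.51 (log2; SE 0.51, limma adjusted p = 0.295) with 12 arrays and -2.27 (SE 0.28, limma adjusted p = 0.0109) without mouse 7, a 4.83-fold lower level.

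Other macrophage genes divided into those that followed Cd163 and those that did not. Arg1, arginase of alternatively activated macrophages, read 7.45, 7.19 and 7.65 in mixed mice and 6.73, 10.36 and 8.94 in eosinophilic mice, a difference of -2.23 (log2) without mouse 7 that just missed the threshold (limma adjusted p = 0.0571). Mouse 7 lay below the mixed mice, so the Arg1 difference was smaller with 12 arrays. Folr2, the folate receptor of interstitial macrophages, read 5.97, 6.20 and 6.38 against 6.24, 8.30 and 7.21. It was chosen after its values were seen and did not pass (-1.57 without mouse 7, limma adjusted p = 0.152). Clec10a, a lectin of macrophages and dendritic cells, read 5.18, 4.82 and 5.05 against 5.40, 6.71 and 5.68. Mixed values lay below that of mouse 7 too, whose array reads dim genes high. By contrast the IL-4 and IL-13 responsive genes Retnla and Chil3 were nearly level. Retnla read 12.69, 12.79 and 12.81 in mixed mice and 13.03 and 12.25 in eosinophilic mice 8 and 9, and Chil3 read 10.95, 10.61 and 11.31 against 11.07 and 10.80. In mouse 7 Retnla was 6.87 and Chil3 8.27. Without that mouse the differences were 0.12 (log2; 95% interval -0.60 to 0.85) for Retnla and 0.02 (-0.83 to 0.88) for Chil3. Over 11 alternatively activated macrophage genes the median difference was 0.71 (log2) with 12 arrays and 0.03 without mouse 7, and Cd163 was the 1 member past the threshold.

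**Figure D3:**
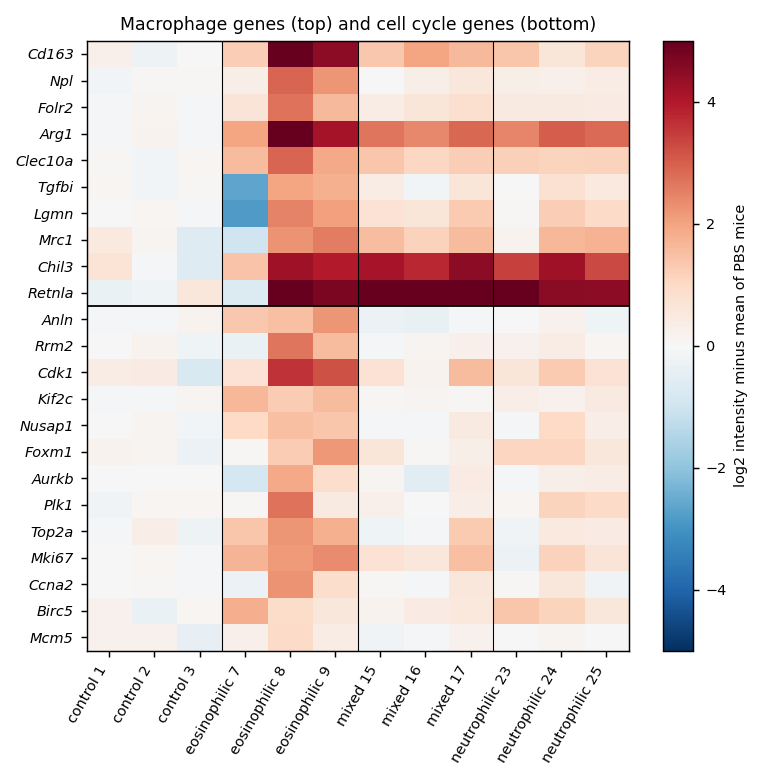
Log2 intensity minus the mean of the 3 control mice for 10 macrophage genes (top) and 13 cell cycle genes (bottom) in each of the 12 mice, with colours ending at 5 log2 units either way. The macrophage genes and some of the cell cycle genes shown were chosen after their values were seen. Red marks levels above control. Cd163, Npl and Cdk1 are redder in eosinophilic mice 8 and 9 than in any other mouse, while Retnla and Chil3 are red in the mixed mice as well.

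Cell cycle genes were the list that lay most evenly below in mixed lung. All 30 measured members had a negative difference in both fits, against 50.2% of all genes with 12 arrays and 51.4% without mouse 7. In 15 of the 30 all mixed values lay below all eosinophilic values, against 6.14% of all genes, and without mouse 7 this held for 27 of the 30, against 8.76% of all genes. In limma 1 member passed without mouse 7 and 0 with all 12 arrays. At an unadjusted p under 0.05, 25 members were lower without mouse 7 (2.72% of all genes) and 19 with all 12 arrays (6.82%). The median difference of the 30 was -0.85 (log2) and -1.01 without mouse 7, and it lay between -1.21 and -0.67 in the 17 alternative settings. The mean level of the 30 was 4.89, 4.86 and 5.29 in mixed mice 15, 16 and 17, 5.46, 6.31 and 5.88 in eosinophilic mice 7, 8 and 9, and 4.89 to 4.93 in control mice. Mixed mice 15 and 16 were thus level with control and mouse 17 slightly above, while mouse 8, whose array had a range like that of the mixed mice, was the highest mouse of the series. Many of these genes are dim. The dimmest 10% of all genes moved in the same direction, by -0.75 (log2) with 12 arrays and -0.33 without mouse 7. The compressed array of mouse 7 reads dim genes high, so for such genes its place with mice 8 and 9 is no separate agreement. The part of this tilt in the list was not tested.

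Rrm2, the small subunit of ribonucleotide reductase that supplies nucleotides for DNA synthesis, was the member that passed. It read 5.17, 5.38 and 5.49 in mixed mice and 4.90, 7.91 and 6.82 in eosinophilic mice, so mouse 7 alone overlapped with the mixed mice. Its difference was -1.20 (log2; SE 0.55, limma adjusted p = 0.298) with 12 arrays and -2.02 (SE 0.32, limma adjusted p = 0.044) without mouse 7, a 4.06-fold lower level. Anln, anillin, a scaffold of the contractile ring in cell division and not on the list, read 4.38, 4.33 and 4.60 against 6.03, 6.18 and 6.88. Here mouse 7 lay with mice 8 and 9, but its compressed array reads dim genes high. Mixed mice lay at or just below the control range of 4.59 to 4.87. The Anln difference was -1.93 (log2; SE 0.28, limma adjusted p = 0.0711) with 12 arrays and -2.10 (SE 0.28, limma adjusted p = 0.0185) without mouse 7, a 4.28-fold lower level. Anln was also higher in eosinophilic than in control lung, by 1.68 (log2; limma adjusted p = 0.0462) and, without mouse 7, by 1.85 (limma adjusted p = 0.00899).

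Further cell cycle genes had wide gaps without passing. Cdk1, the kinase that drives entry into mitosis, read 5.54, 5.01 and 6.42 in mixed mice and 5.56, 8.44 and 8.0 in eosinophilic mice, a difference of -2.56 (log2; limma adjusted p = 0.0823) without mouse 7. Mouse 7 lay among the mixed mice, so the Cdk1 difference was smaller with 12 arrays. Top2a, topoisomerase II alpha, read 4.56, 4.66 and 6.07 against 6.14, 6.97 and 6.53, with mixed mouse 17 close to mouse 7. Mki67, which encodes the proliferation marker Ki-67, read 6.37, 6.22 and 7.15 against 7.33, 7.78 and 8.01, and Nusap1, a spindle protein, read 3.96, 3.94 and 4.52 against 5.05, 5.56 and 5.44. These 3 did not overlap between the groups, mouse 7 included, although the array of mouse 7 reads dim genes such as Nusap1 high. Kif2c, a kinesin of the mitotic spindle that was chosen after its values were seen, read 4.16, 4.22 and 4.16 against 5.74, 5.38 and 5.68 and had a limma adjusted p of 0.121 with 12 arrays and 0.11 without mouse 7. Kif2c is dim as well, so the same limit holds for its value in mouse 7.

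The promoter of Cdk1 shows the motifs typical of genes switched on in late cell cycle and is printed for that reason. The 120 bases upstream of its start (chr10:69352913-69353032, minus strand, RefSeq, GRCm38.p6) are given 5′ to 3′ on the strand of the gene, with capitals for TTTGAA, the core of the cell cycle genes homology region (CHR).
Cdk1: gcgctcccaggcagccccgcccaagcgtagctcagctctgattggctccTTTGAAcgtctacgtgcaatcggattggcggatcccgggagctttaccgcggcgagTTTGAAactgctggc
TTTGAA was found on either strand in the 250 bases before the start in 9 of 24 cell cycle genes with a window (37.5%) and in 16% of all 32851 windows. CCAAT, the letters of the box bound by NF-Y, was found in 20 of the 24 (83.3%) and in 33.8% of all windows, and the motifs were counted apart from each other. A gene was counted if any of its windows held the letters, so the share of genes and the share of windows are unlike measures. A match says only that the letters are there.

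Immunoglobulin genes lay above the eosinophilic mice in all 3 mixed mice. Ighm, the heavy chain of IgM, read 9.28, 8.60 and 9.74 in mixed mice and 6.82, 5.94 and 5.41 in eosinophilic mice, against 5.87 to 6.40 in control mice. Jchain, the joining chain of IgM and IgA, read 9.07, 9.49 and 11.50 against 6.31, 6.23 and 6.13. For Jchain the eosinophilic mice lay within 0.2 log2 of each other. For Ighm mouse 7 was the highest of them and lay above the control range, and it was still below every mixed mouse. The compressed array of mouse 7 pulls bright genes down, so for both genes its place below the mixed mice is no separate agreement. The differences were 3.15 for Ighm and 3.80 for Jchain (log2) with 12 arrays and 3.53 and 3.85 without mouse 7, and they did not pass in limma (adjusted p = 0.193, 0.227, 0.12 and 0.271 in that order). Igha, the heavy chain of IgA, read 6.59, 6.99 and 11.13 in mixed mice against 5.45 to 5.79, so mixed mouse 17 alone was far above the rest. The B cell coactivator gene Pou2af1 read 7.02, 7.23 and 8.22 against 4.80, 6.12 and 5.45. Of 10 immunoglobulin and plasma cell genes 5 had mixed values wholly above, with and without mouse 7 (6.91% and 9.33% of all genes). In limma 0 passed, and 6 were higher at an unadjusted p under 0.05 with 12 arrays (9.84% of all genes) and 5 without mouse 7 (4.51%). Their median difference was 1.69 (log2) and 1.13 without mouse 7.

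**Figure D4:**
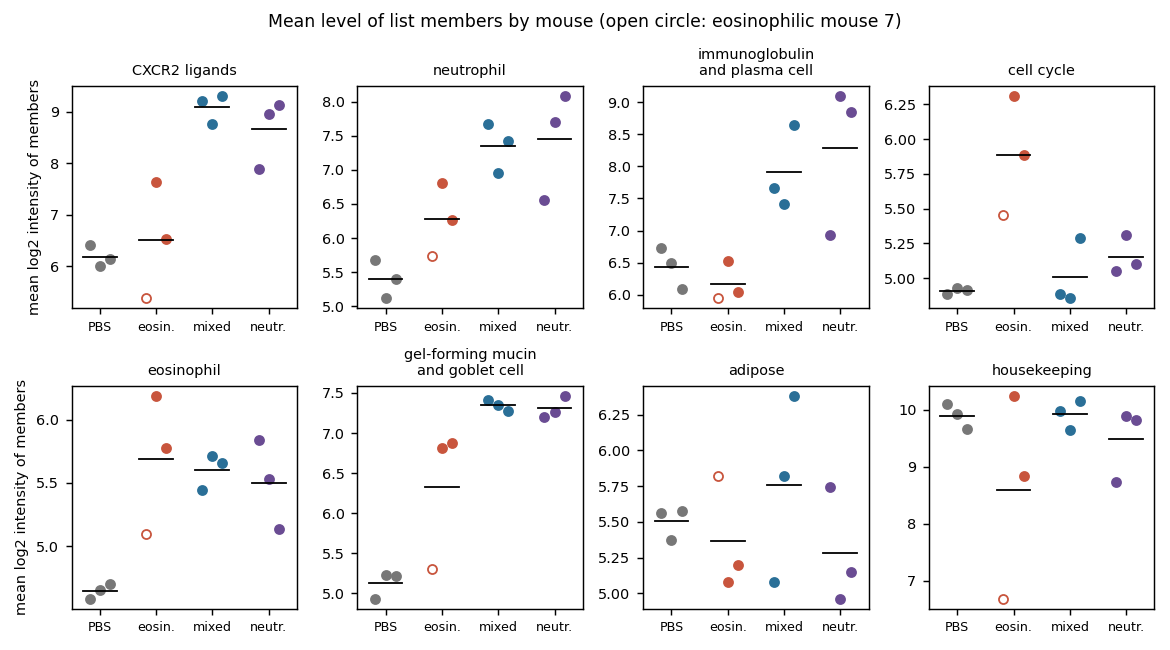
Mean log2 intensity of the members of 8 gene lists in each mouse of the 4 groups (bar, mean of 3 mice; open circle, eosinophilic mouse 7). The cell cycle mean was 5.46 to 6.31 in eosinophilic and 4.86 to 5.29 in mixed mice, and the housekeeping mean was 6.69 in mouse 7, 8.84 in mouse 9 and 9.64 to 10.24 in mouse 8 and the mixed mice.

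The type 2 chemokine genes named here lay above control in the mixed mice and in eosinophilic mice 8 and 9, and none passed between the groups. Ccl11, eotaxin-1, read 9.82, 9.70 and 9.67 in mixed mice and 6.66, 9.53 and 7.32 in eosinophilic mice, and control mice read 4.89 to 5.69. Ccl17 and Ccl22, both ligands of CCR4 on Th2 cells, read 10.36 to 10.77 and 8.09 to 8.95 in mixed mice, against 5.31, 9.60 and 8.78 for Ccl17 and 5.80, 7.66 and 6.29 for Ccl22. All 3 chemokines had mixed values above the eosinophilic values, with mouse 8 the nearest, and none passed in limma (adjusted p between 0.328 and 0.667 without mouse 7). Il13 read 5.29 to 5.85 against 5.07 to 5.43, with a 95% interval of the difference of -0.51 to 1.09 (log2) without mouse 7. Il33, an epithelial alarmin, read 11.40, 10.85 and 10.54 against 5.67, 10.60 and 9.61 and overlapped. Of 10 type 2 chemokine and receptor genes 3 were higher in mixed lung at an unadjusted p under 0.05 in limma in each fit (9.84% and 4.51% of all genes). The median difference was 0.22 (log2) and 0.24 without mouse 7. Differences were negative in 2 of the 10 with 12 arrays (50.2% of all genes) and in 4 without mouse 7 (51.4%), the lowest at -1.18 (log2). All mixed values lay above all eosinophilic values in 3 of the 10 in each (6.91% and 9.33% of all genes). They lay wholly below in 0 with 12 arrays (6.14%) and in 1 without mouse 7 (8.76%).

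No eosinophil gene passed between the groups. Of 10 measured, 6 had a negative difference with 12 arrays (50.2% of all genes) and 8 without mouse 7 (51.4%). All mixed values lay below all eosinophilic values in 2 of the 10 with 12 arrays (6.14% of all genes) and in 5 without mouse 7 (8.76%), and in none did they lie wholly above. Epx, eosinophil peroxidase, read 4.12, 4.80 and 3.86 in mixed mice and 5.62, 4.97 and 5.31 in eosinophilic mice, without overlap. These values are near the dim end in both groups, where the array of mouse 7 reads high, and control mice read 4.20 to 4.21. Rnase2a, an eosinophil-associated ribonuclease also expressed by macrophages, read 9.20, 9.92 and 9.99 in mixed mice and 6.56, 11.76 and 10.25 in eosinophilic mice, against 3.42 to 4.51 in control mice. Its difference was 0.18 (log2) with 12 arrays and -1.30 without mouse 7, so the sign depended on that mouse. The median over 10 eosinophil genes was -0.20 (log2) and -0.30 without mouse 7. In limma 1 gene with 12 arrays (6.82% of all genes) and 2 without mouse 7 (2.72%) were lower at an unadjusted p under 0.05.

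Several smaller groups had non-overlapping members that did not pass. Sele, E-selectin, which catches rolling leukocytes on activated endothelium, read 7.51, 7.84 and 7.23 in mixed mice and 6.50, 5.84 and 4.83 in eosinophilic mice, a difference of 2.19 (log2; limma adjusted p = 0.113) without mouse 7. The interferon-induced GTPase genes Gbp5 and Mx2 read 8.39, 7.56 and 7.91 against 4.84, 6.67 and 5.95, and 7.21, 7.48 and 5.88 against 5.74, 5.47 and 4.64. Ctla4, an inhibitory receptor of T cells, read 7.19, 6.60 and 7.88 against 5.22, 5.10 and 5.16, and Foxp3, the regulator of regulatory T cells, read 5.94, 5.18 and 5.61 against 5.08, 4.63 and 4.42. Cd86, a costimulatory ligand on antigen-presenting cells, read 7.33, 6.52 and 7.23 against 4.74, 5.72 and 5.09. Of 19 T cell genes, however, 8 had a negative difference with 12 arrays (50.2% of all genes) and 4 without mouse 7 (51.4%). In each fit 3 lay wholly above (6.91% and 9.33% of all genes), with medians of 0.34 and 0.49 (log2). Wholly above lay 4 of 10 leukocyte adhesion genes, 7 of 22 interferon-stimulated genes and 5 of 11 genes of the MHC class II list, which holds Cd86. These counts were the same with and without mouse 7 (6.91% and 9.33% of all genes), but the median differences were smaller without it. They went from 1.13 to 0.27 (log2) for leukocyte adhesion, 0.79 to 0.46 for interferon-stimulated and 1.38 to 0.39 for MHC class II genes. The housekeeping median went from 1.25 to 0.48. Of the 22 interferon-stimulated genes 1 lay wholly below in each (6.14% and 8.76% of all genes). The 6 genes with values here lay wholly above, with limma adjusted p between 0.113 and 0.667 without mouse 7.

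Markers of tissue next to the lung also varied between mice. Retn, a gene expressed in mouse fat, read 6.77, 9.06 and 9.19 in mixed mice and 4.63, 5.49 and 5.39 in eosinophilic mice, and Car3, carbonic anhydrase 3 of fat and muscle, read 8.85, 9.96 and 10.26 against 6.47, 7.43 and 7.20. Both genes were chosen after their values were seen. Adipoq, adiponectin of fat cells, read 4.54, 5.86 and 7.12 against 5.50, 4.28 and 4.85. Fabp4, held here in the alveolar macrophage list and not among the fat genes, read 6.30, 8.47 and 8.94 against 5.60, 6.29 and 5.28. Mixed mice 16 and 17 were the high ones for both. The mean of the 4 measured fat genes was 5.08, 5.82 and 6.38 in mixed mice and 5.82, 5.08 and 5.20 in eosinophilic mice. Myl7, a myosin light chain of the atrium, read 7.66, 8.62 and 7.86 against 5.85, 7.20 and 5.75, and the mean of 8 heart and skeletal muscle genes ran from 7.73 to 8.91 in mixed and from 6.29 to 7.61 in eosinophilic mice. This mean was 7.55 to 7.99 in control and 7.31 to 8.25 in neutrophilic mice. Mixed mouse 15 and eosinophilic mouse 8 lay within the control values. Mixed mice 16 and 17 lay above them, and eosinophilic mice 7 and 9, with low-range arrays, below. In mixed mouse 15 Retn, Car3 and the heart and skeletal muscle mean lay above every eosinophilic mouse, while its fat mean was at the low end of the eosinophilic values. The part of such tissue in other results was not tested.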

How the data were processed

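Lungs of 12 mice were profiled on 1 array each, from 300 ng of RNA per the labels. The authors deposited log2 intensities, 1 per probe set. The submitters' processing notes name RMA and Affymetrix Expression Console, without versions. RMA includes quantile normalization across arrays, so a change common to all genes cannot be seen. That the scale is log2 was read from the range of the values. No depth applies to arrays, and their number limits the precision.

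Of 34760 probe sets, 21640 carried a single gene symbol in the platform annotation, 1321 several and 11799 none. Each gene was represented by its brightest probe set (highest mean, 12 arrays), giving 19937 genes. A mean per group was fitted to all 12 arrays in limma 3.58.1 (R 4.3.3; lmFit, eBayes), with the contrast mixed minus eosinophilic, two-sided, Benjamini-Hochberg adjusted over the 19937 genes, at adjusted p under 0.05. The spread is pooled over the 4 groups. Each result was repeated without eosinophilic mouse 7. The code was tested on simulated data.

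Lists (43, with 580 of 624 entries matched) are described by counts and medians, with no set test. All members and lists were chosen with earlier results of these data known. Genes were named if past the threshold with groups that did not overlap (up to 12 in each direction, filled from the fit without mouse 7, without predicted or snoRNA names), if among the 4 smallest p of a list, or as a list member whose level is described. Alternatives were filters, centring, quantile normalization, array weights, an SD covariate, trend and robust settings, the mean of probe sets, the 6 arrays alone and leaving out arrays. Promoter letters came from RefSeq (GRCm38.p6). The labels give no batch or scan date, so none was tested.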

Additional observations from a re-analysis of the deposited data

How the results depend on the processing

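The count of 1 gene past the threshold was the same with a filter on dim genes, centring, quantile normalization and the mean of all probe sets. It was 7 with trend and robust settings, 6440 with array weights, 0 with the 6 arrays alone, 24 without the 3 low-range arrays (eosinophilic mice 7 and 9, neutrophilic mouse 23, which leaves 1 eosinophilic mouse, assumed to vary like the other groups) and 4 with a covariate for the SD of the array. Leaving out 1 array gave 0 to 5979 genes: 10 without eosinophilic mouse 7, 5979 without eosinophilic mouse 8, 6 without mixed mouse 15 and 0 without eosinophilic mouse 9, mixed mouse 16 or mixed mouse 17. Without mouse 8 both remaining eosinophilic arrays have a low range, and 3412 of the 5979 genes were higher in mixed lung. The array weights were 0.094, 0.19 and 2.08 for eosinophilic mice 7, 8 and 9. The eosinophilic mean behind the 6440 genes thus rests mainly on mouse 9, whose array has a low range, and little on mouse 8. All 10 genes called without mouse 7 passed in that setting, which is among the 17 counted below. Chosen after seeing the data, quantile normalization and median centring without mouse 7 gave 17 and 10 genes. The count of list members past the threshold, 1 as reported, was 3, 232, 0, 13 and 3 in the same 5 settings, 9 and 6 in the added pair, and 0 to 213 when 1 array was left out. Cxcl5 passed in 13 of 17 settings (adjusted p 5.79e-07 to 0.126), Anln, Sprr1a and Snora74a in 8, Cxcl1 in 7, Cd163, Npl and Rrm2 in 5 and Gm10590 and Vaultrc5 in 4, and each of the 10 kept its sign in all 17. Cell cycle genes had a negative median and CXCR2 ligands a positive one in all 17.

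Of the 76 genes followed through all settings 9 reversed, and none of these passed as reported (log2 difference; the cause was not tested). Over all 19937 genes 3895 had opposite signs with and without mouse 7. Without the 3 low-range arrays the difference was -0.45 for Ppbp, -0.11 for Chil3, -0.26 for Retnla, -2.05 for Rnase2a, -0.51 for Casp1, -0.19 for Sftpc and -0.018 for Cdh1. With the SD covariate it was -0.18 for Chil3, -1.24 for Rnase2a, -0.11 for Casp1, -0.089 for Cdh1 and -0.085 for Tjp1. With quantile normalization it was -0.49 for Chil3 and -0.64 for Rnase2a, and with array weights -0.43 for Rnase2a. With quantile normalization without mouse 7 it was -0.24 for Chil3, -0.29 for Retnla, -1.60 for Rnase2a, -0.12 for Cdh1 and -0.082 for Tjp1, and with centring without mouse 7 -0.0085 for Chil3 and -1.33 for Rnase2a. Leaving out 1 array at a time, Rnase2a ran from -1.30 to 1.30, Nlrp3 from -0.10 to 0.77 and Casp1 from -0.10 to 0.49. No paired analysis was possible because the groups share no replicate numbers.

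With 3 mice a group, of which 1 array has a low range, a difference that did not pass does not show equal levels.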

Other observations

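Small RNA genes made up part of the few calls. Snora74a, a small nucleolar RNA that guides pseudouridylation of RNA, read 7.03, 7.78 and 8.29 in mixed mice and 5.83, 5.28 and 5.0 in eosinophilic mice, against 6.14 to 6.68 in control mice. Mixed mice lay above the control range and eosinophilic mice below it. The difference was 2.34 (log2; limma adjusted p = 0.091) with 12 arrays and 2.57 (limma adjusted p = 0.0187) without mouse 7. Vaultrc5, a vault RNA, read 8.38, 8.93 and 8.76 against 4.89, 6.74 and 7.01, with a limma adjusted p of 0.181 and, without mouse 7, 0.0496. It was at 10.06 to 10.23 in neutrophilic mice, above every other mouse. The predicted gene Gm10590 read 7.91, 8.35 and 7.70 against 5.66, 6.25 and 6.02, with a limma adjusted p of 0.0711 and, without mouse 7, 0.044. Snora74a and Gm10590 were named after their values were seen.

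Neutrophilic mice, which share the nasal route and schedule with mixed mice at a higher dose, also differed from eosinophilic mice in genes of the contrast. Without mouse 7 the neutrophilic minus eosinophilic difference was 3.41 (log2; limma adjusted p = 0.00374) for Cxcl5, 2.64 (limma adjusted p = 0.00538) for Cxcl1 and 2.69 (limma adjusted p = 0.008) for Sprr1a. It was -3.68 (limma adjusted p = 0.000267) for Cd163, -2.26 (limma adjusted p = 0.00538) for Npl, -1.86 (limma adjusted p = 0.0149) for Anln and -1.88 (limma adjusted p = 0.0294) for Rrm2. Arg1 (-2.11, limma adjusted p = 0.0338), Cdk1 (-2.51, limma adjusted p = 0.0369) and Ighm (3.62, limma adjusted p = 0.0467) passed there and not between mixed and eosinophilic lung. Both contrasts use the same 2 eosinophilic arrays, and a difference between them was not tested.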
